A study of Homo sapiens with 4 samples.

Results

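The sterol and fatty acid synthesis genes are a list of 37 genes, chosen by name, that encode the regulators of lipid synthesis, the enzymes from acetyl-CoA to cholesterol, the enzymes that make, desaturate and lengthen fatty acids, and a pair of transporters that carry sterols out of the cell. All 37 were found by symbol among the 48162 genes of the deposited table. RNA was sequenced from MDA-MB-231, an established breast cancer line of human origin, treated for 24 h with 10 µM MGH-CP1 (2 libraries) or with vehicle control (2 libraries). MGH-CP1 is a small molecule that binds the lipid pocket of the TEAD transcription factors and blocks their palmitoylation, and the comparison asks how the transcriptome of these cells differs when that step is blocked. The dose is that of the sample labels, while the methods of the study write the same number with the unit mM. The line is a single cell line in culture medium with serum, and the labels do not say whether replicates came from separate cultures. The p-values therefore rest only on the spread between these libraries, which may be technical, and on variance shared across genes.

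Cholesterol and fatty acids are both built from cytosolic acetyl-CoA. The mevalonate pathway joins acetyl units into isoprenoid diphosphates up to farnesyl diphosphate, which leads to squalene and then, through lanosterol, to cholesterol, and also to the lipid anchors and quinones that other enzymes make from the same intermediates. Genes of both pathways are classically induced by the sterol regulatory element-binding proteins encoded by SREBF1 and SREBF2, which SCAP escorts from the endoplasmic reticulum when sterols are low and which INSIG proteins retain there when sterols are high. The liver X receptors (LXRs) respond to oxysterols and classically induce sterol efflux genes and SREBF1.

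Values are FPKM, that is fragments scaled to the gene length and to the total of each library over genes, as the authors deposited them, so they can be compared between genes as well as between libraries. The vehicle control libraries held 25455533 and 25508824 fragments on genes, as recovered from the FPKM, and the MGH-CP1 libraries 17997221 and 17577930. Mitochondrial genes took 0.447% and 0.418% of them in the vehicle control libraries and 1.57% and 1.53% after MGH-CP1, and the part of this difference in the results was not tested. The markers of the line VIM, CD44, AXL, CAV1, EGFR and ZEB1 lay between 15.4 and 388.5 FPKM, the oestrogen and progesterone receptor genes ESR1 and PGR were at most 0.0243 FPKM and CDH1 at most 0.638, whereas EPCAM, listed as a low marker, had 12.4 to 16.4 FPKM. The 5 TEAD target genes checked were all called lower, where 23.8% of all genes tested were. Among them were CYR61, CTGF and ANKRD1 with log2 fold changes of -0.75, -0.66 and -0.66, and AXL, which is also one of the markers above. The markers EGFR and CAV1 were called lower too (log2 fold changes -0.46 and -0.49), while VIM, CD44 and ZEB1 were not called. FPKM are shares of the fragments in bulk RNA, so a smaller share of cells and less RNA per cell cannot be told apart, and the total RNA per cell was not measured.

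After MGH-CP1, the genes of sterol and fatty acid synthesis did not move as a block. The sterol efflux genes ABCG1 and ABCA1, the regulators SREBF1 and INSIG2, the desaturase gene SCD and the enzyme genes TM7SF2, GGPS1 and LSS rose most, while TMEM97, ACAT2, ELOVL5, DHCR7 and ACLY fell. Of the 36 genes with a mean of at least 1 FPKM over the libraries, 14 were called higher and 5 lower (adjusted p under 0.05 from limma on log2(FPKM + 1), Benjamini-Hochberg over all 12080 genes tested, two-sided), and 17 were not called. Over all genes tested, 27.1% were called higher and 23.8% lower. The count of 14 corresponds to 38.9% and that of 5 to 13.9% of the genes tested on the list, and 5 of the 14 and 2 of the 5 changed by at least 0.5 on the log2 scale (all genes, 10.4% and 6.16%). The median log2 fold change of the list was 0.06, and that of all genes tested was 0.01. Log2 fold changes here are differences of log2(FPKM + 1), so for genes at low levels they are smaller in size than the log2 of the FPKM ratio. In 18 of the 36 genes both MGH-CP1 libraries lay above both vehicle control libraries and in 11 below, where 39.8% and 37.4% of all genes tested did so. The groups therefore did not overlap in 29 of the 36 genes, beside 77.2% of all genes tested. A single gene cannot reach an exact permutation p below 0.333 with 2 libraries against 2, so the calls depend on variance borrowed across genes by limma.

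**Figure D1:**
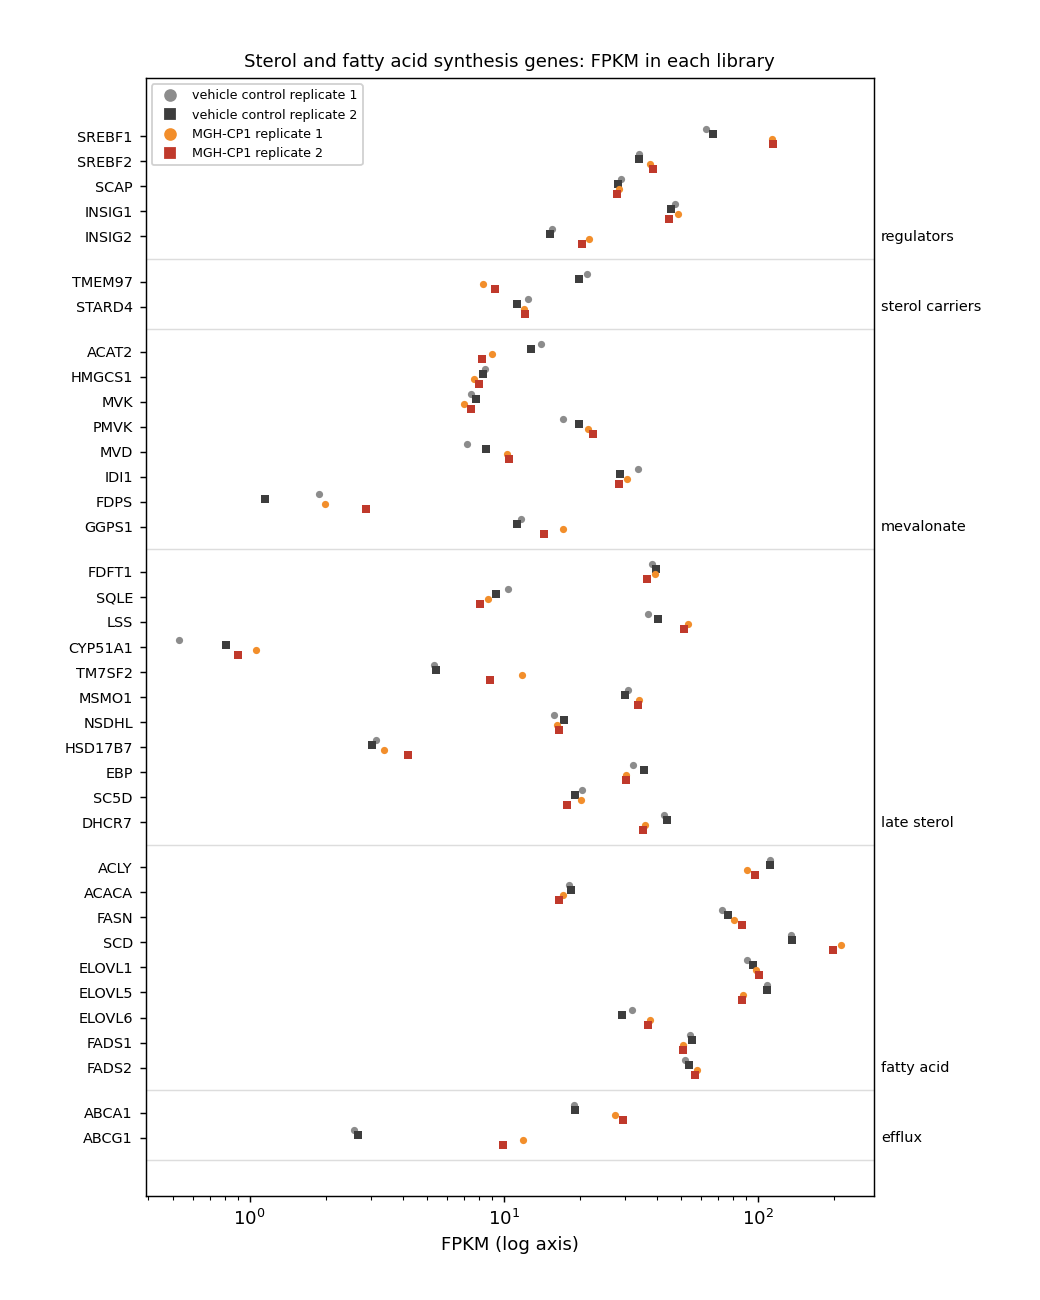
FPKM (log axis) of the 37 genes in each of the 4 libraries, grouped by step of the pathway, with 1 point per library. The levels span from CYP51A1, at 0.526 to 1.06 FPKM, to SCD, at 135 to 211 FPKM, and the MGH-CP1 points stand clear of the vehicle control points to the right for ABCG1, SREBF1 and SCD and to the left for TMEM97.

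Among the regulators, SREBF1, INSIG2 and SREBF2 rose and SCAP and INSIG1 were not called. SREBF1, whose products mainly drive fatty acid synthesis genes, had 62.8 and 66.7 FPKM in the vehicle control libraries and 113 and 115 FPKM after MGH-CP1. Every MGH-CP1 value of SREBF1 was above every vehicle control value, and the difference between the groups was larger than that between replicates. Its log2 fold change was 0.81 (standard error, SE, 0.05, limma adjusted p = 2.58e-05). SREBF1 lies on chromosome 17 from 17713713 to 17740325 (minus strand), in the hg19 build named in the processing notes of the submitters. SREBF2, whose product is the main activator of cholesterol synthesis genes, had 34.2 and 34.03 FPKM in the vehicle control libraries and 37.7 and 38.6 after MGH-CP1. That rise, of 0.16 on the log2 scale (SE 0.05, limma adjusted p = 0.0290), was small, and the call was lost whichever library was left out (adjusted p from 0.0685 to 0.129 in limma).

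INSIG2, 1 of the pair of endoplasmic reticulum anchors, rose from 15.5 and 15.2 FPKM to 21.7 and 20.2 FPKM (log2 fold change 0.42, SE 0.06, limma adjusted p = 7.67e-04). INSIG1, the other anchor and itself a classical sterol-responsive gene, had 47.1 and 45.5 FPKM in the vehicle control libraries and 48.7 and 44.5 FPKM after MGH-CP1. The INSIG1 values of the groups overlapped, with a 95% confidence interval of the log2 fold change from -0.13 to 0.14. SCAP, the escort protein, overlapped as well, at 29.1 and 28.2 FPKM with vehicle and 28.3 and 27.98 FPKM with MGH-CP1, with an interval from -0.14 to 0.10.

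Promoter sequences from RefSeq (GRCh38.p14, 250 bases before to 50 after each start) matched 32 of the 37 genes (not ACAT2, FDFT1, SQLE, FASN and ABCG1) and were searched on both strands for fixed letters. The sterol regulatory element TCACNCCAC was found for 1 of the 32 genes, SREBF2, and for 1.39% of all 27305 genes in that table. The NF-Y box CCAAT, the site of a factor known to act beside sterol regulatory element-binding proteins, was found for 24 of the 32 genes (75%) and for 39.7% of all genes. The TEAD letters GGAATG were found for 5 of 32 (15.6%; all genes, 16.7%) and the E-box CACGTG for 6 of 32 (18.8%; all genes, 8.77%). A gene with several starts was counted when any of its windows held the letters. Over genes with a single window, 16 of 23 listed genes and 36.2% of all genes held the NF-Y box. These are letter matches and say nothing of binding.

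The 250 bases before the start are shown for the regulator genes SREBF1 and SREBF2, for TMEM97, which fell most, and for TM7SF2 and SCD, which were among those that rose most. Capitals mark the sterol regulatory element and the NF-Y box in SREBF2 and the NF-Y boxes in TMEM97, TM7SF2 and SCD. The box is inverted in SREBF2 and in TM7SF2. The window of SREBF1 held no match to any of the motifs. Of these genes, TMEM97 held 3 NF-Y boxes and SCD held 2, and no relation of the boxes to the direction of change was tested.
SREBF1 (chr17:17836987-17837236, minus strand): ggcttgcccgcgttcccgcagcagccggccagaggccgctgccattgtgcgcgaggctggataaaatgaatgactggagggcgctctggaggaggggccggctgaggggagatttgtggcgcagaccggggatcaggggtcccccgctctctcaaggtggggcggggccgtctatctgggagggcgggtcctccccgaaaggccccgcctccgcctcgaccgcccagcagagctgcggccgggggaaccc
SREBF2 (chr22:41832855-41833104, plus strand): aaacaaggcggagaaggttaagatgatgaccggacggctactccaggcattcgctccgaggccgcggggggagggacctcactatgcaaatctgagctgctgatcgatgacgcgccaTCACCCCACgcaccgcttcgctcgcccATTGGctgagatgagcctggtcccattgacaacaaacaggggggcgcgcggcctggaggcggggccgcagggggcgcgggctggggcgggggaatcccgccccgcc
TMEM97 (chr17:28318950-28319199, plus strand): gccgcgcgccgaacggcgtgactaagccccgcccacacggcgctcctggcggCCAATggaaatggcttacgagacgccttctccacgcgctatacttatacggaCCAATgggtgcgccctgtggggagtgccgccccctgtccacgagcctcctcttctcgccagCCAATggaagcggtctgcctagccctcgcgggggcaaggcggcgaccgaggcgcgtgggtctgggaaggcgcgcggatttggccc
TM7SF2 (chr11:65111622-65111871, plus strand): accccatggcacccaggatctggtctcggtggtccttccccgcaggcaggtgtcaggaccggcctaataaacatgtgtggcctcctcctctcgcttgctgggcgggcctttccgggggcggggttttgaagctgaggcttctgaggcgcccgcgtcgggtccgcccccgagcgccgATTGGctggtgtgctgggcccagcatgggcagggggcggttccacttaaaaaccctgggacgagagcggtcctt
SCD (chr10:100346983-100347232, plus strand): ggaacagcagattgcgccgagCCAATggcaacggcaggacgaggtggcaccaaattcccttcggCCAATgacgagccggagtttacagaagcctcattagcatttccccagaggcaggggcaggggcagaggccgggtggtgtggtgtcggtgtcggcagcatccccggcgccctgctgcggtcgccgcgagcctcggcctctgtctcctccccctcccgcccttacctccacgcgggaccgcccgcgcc

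TMEM97, a sterol-binding membrane protein of the endoplasmic reticulum also known as the sigma-2 receptor, showed the largest change downward on the list. It had 21.3 and 19.9 FPKM in the vehicle control libraries and 8.32 and 9.21 FPKM after MGH-CP1, so that the group mean after MGH-CP1 was 0.426 of the vehicle control mean. Its log2 fold change was -1.14 (SE 0.07, limma adjusted p = 2.63e-05), the 7th largest fall among all 12080 genes tested. TMEM97 lies on chromosome 17 from 26646121 to 26655707 (plus strand, hg19), and 356 bases of it overlap IFT20 on the opposite strand, which was not called (log2 fold change 0.19, adjusted p = 0.0703 from limma). STARD4, which carries cholesterol between membranes, had 12.4 and 11.3 FPKM in the vehicle control libraries and 12.04 and 12.1 FPKM after MGH-CP1 and was not called, with an interval from -0.13 to 0.18.

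Along the mevalonate pathway, from acetyl-CoA to farnesyl and geranylgeranyl diphosphate, the first step fell, the middle steps MVD and PMVK and the branch gene GGPS1 rose, and the other 4 were not called. Of the 8 genes tested, 3 were called higher and 1 lower, and their median log2 fold change was 0.09. ACAT2, the cytosolic thiolase that joins a pair of acetyl-CoA units, had 14.03 and 12.9 FPKM in the vehicle control libraries and 9.02 and 8.25 FPKM after MGH-CP1. It fell by 0.58 on the log2 scale (SE 0.07, limma adjusted p = 4.43e-04), with no overlap between the groups. In GENCODE release 29 (GRCh38), 52.3% of the exonic bases of ACAT2 are also exonic in other genes, and in the deposited table it overlaps TCP1, which fell too (log2 fold change -0.47, adjusted p = 1.49e-04 from limma), and SOD2, which rose (log2 fold change 0.23, adjusted p = 0.0101 from limma). Both lie on the opposite strand, whether the counting used the strand is not given in the sources used here, and the part of the overlap in the fall was not tested.

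HMGCS1, which makes HMG-CoA, had 8.40 and 8.32 FPKM in the vehicle control libraries and 7.67 and 7.97 FPKM after MGH-CP1. Both MGH-CP1 values were lower, but the difference was not called (log2 fold change -0.09, interval from -0.24 to 0.07). MVK, mevalonate kinase, was also not called, at 7.46 and 7.75 FPKM with vehicle and 6.98 and 7.42 FPKM with MGH-CP1 (interval from -0.24 to 0.10). The next enzymes are PMVK, which phosphorylates mevalonate 5-phosphate, and MVD, which decarboxylates the resulting diphosphate. PMVK rose from 17.2 and 19.8 to 21.5 and 22.4 FPKM, and MVD from 7.17 and 8.52 to 10.3 and 10.5 FPKM. The log2 fold change was 0.24 for PMVK (SE 0.07, limma adjusted p = 0.0263) and 0.37 for MVD (SE 0.09, limma adjusted p = 0.00796). The PMVK call was lost without vehicle control replicate 1 (adjusted p = 0.144), without MGH-CP1 replicate 1 (adjusted p = 0.0628) and without MGH-CP1 replicate 2 (adjusted p = 0.120 in limma).

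IDI1, the isomerase that makes the starter unit for chain elongation, had 33.7 and 28.7 FPKM in the vehicle control libraries and 30.5 and 28.4 FPKM after MGH-CP1. Its groups overlapped, but without vehicle control replicate 2 the log2 fold change of -0.08 became -0.19 and was called (adjusted p = 0.0483 from limma). GGPS1, which makes the geranylgeranyl diphosphate used to anchor small GTPases, rose from 11.7 and 11.3 FPKM to 17.2 and 14.4 FPKM (log2 fold change 0.42, SE 0.09, limma adjusted p = 0.00442). Of its longest coding transcript in GENCODE release 29, 21.9% of the 100-base windows also occur in a transcript of the neighbour TBCE, which was not called (log2 fold change -0.12). FDPS, farnesyl diphosphate synthase, had the lowest mean level of the 8 genes, with 1.87 and 1.15 FPKM in the vehicle control libraries and 1.98 and 2.88 FPKM after MGH-CP1, from 59 to 102 fragments per library. It was not called (log2 fold change 0.45, SE 0.18, limma adjusted p = 0.0605), and a fit to the recovered fragments with limma voom gave 0.70 (adjusted p = 0.0155). The antisense gene RUSC1-AS1 covers 18.6% of the exonic bases of FDPS, and reads in the shared bases cannot be assigned to either gene without strand. RUSC1-AS1 had 0.663 and 0.811 FPKM in the vehicle control libraries and 2.09 and 1.43 FPKM after MGH-CP1 (log2 fold change 0.66). It passed the filter only through the MGH-CP1 libraries.

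From squalene to cholesterol the changes again went both ways: LSS, TM7SF2 and MSMO1 rose, DHCR7 fell, and 6 of the 10 genes tested were not called. The median log2 fold change of these late sterol genes was -0.02. FDFT1, which makes squalene, had 38.2 and 39.7 FPKM in the vehicle control libraries and 39.4 and 36.7 FPKM after MGH-CP1, with overlapping groups (interval from -0.16 to 0.10). SQLE, the epoxidase that is a second control point of the pathway, had 10.4 and 9.31 FPKM with vehicle and 8.65 and 8.09 FPKM with MGH-CP1. Both MGH-CP1 values of SQLE were lower, with an adjusted p of 0.0509 from limma just beyond the threshold and a log2 fold change of -0.21 (SE 0.08), and limma voom on the recovered fragments called it lower (adjusted p = 0.0379). LSS, lanosterol synthase, which closes the sterol rings, rose from 37.1 and 40.4 FPKM to 53.2 and 51.1 FPKM (log2 fold change 0.42, SE 0.06, limma adjusted p = 6.49e-04). LSS overlaps the low-level gene AP001468.1 (15 to 29 fragments per library, log2 fold change 0.56). That gene passed the filter only through the MGH-CP1 libraries, at 1.24 and 2.05 FPKM, and was at 0.831 and 0.731 FPKM with vehicle.

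TM7SF2 and LBR both encode sterol C14 reductases, and they went in opposite directions. TM7SF2 had 5.33 and 5.39 FPKM in the vehicle control libraries and 11.8 and 8.80 FPKM after MGH-CP1 (log2 fold change 0.82, SE 0.12, limma adjusted p = 8.34e-04). The MGH-CP1 replicates of TM7SF2 differed from each other but both lay above the vehicle control libraries, and the log2 fold change lay between 0.62 and 1.01 with a library left out. LBR, the lamin B receptor and no gene of the list, had 65.9 and 63.7 FPKM in the vehicle control libraries and 45.0 and 45.8 FPKM after MGH-CP1, and fell by 0.50 on the log2 scale (SE 0.05, limma adjusted p = 1.22e-04). In the vehicle control libraries the mean level of LBR was 64.8 FPKM and that of TM7SF2 was 5.36 FPKM. TM7SF2 lies on chromosome 11 from 64879317 to 64883856 (plus strand, hg19) and shares 16 bases with VPS51 on the same strand, which was not called (log2 fold change 0.09).

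MSMO1, the C4 methyl oxidase, rose from 30.7 and 30.1 FPKM to 34.2 and 33.8 FPKM. The log2 fold change was 0.15 (SE 0.05, limma adjusted p = 0.0327), and the call was lost whichever library was left out (adjusted p from 0.0593 to 0.129 in limma). Its partners in removing the C4 methyl groups were not called: NSDHL had 15.8 and 17.2 FPKM in the vehicle control libraries and 16.2 and 16.5 FPKM after MGH-CP1, with overlapping groups. HSD17B7 had 3.15 and 3.04 FPKM with vehicle and 3.39 and 4.19 FPKM with MGH-CP1, and 16.7% of the 100-base windows of its transcript also occur in other genes, above all in the pseudogene HSD17B7P2. Its log2 fold change of 0.22 lay between 0.10 and 0.34 with a library left out, and it was called higher without MGH-CP1 replicate 1 (adjusted p = 0.0462 from limma). EBP, the sterol isomerase, had 32.2 and 35.8 FPKM in the vehicle control libraries and 30.4 and 30.3 FPKM after MGH-CP1. Both MGH-CP1 values of EBP were lower, without a call (log2 fold change -0.16, adjusted p = 0.0666 from limma). SC5D, the C5 desaturase, overlapped between the groups, at 20.3 and 19.03 FPKM with vehicle and 20.1 and 17.7 FPKM with MGH-CP1 (interval from -0.23 to 0.11).

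At the end of the pathway, DHCR7 fell. DHCR7, the sterol reductase that converts 7-dehydrocholesterol to cholesterol, had 42.8 and 43.9 FPKM in the vehicle control libraries and 35.99 and 35.5 FPKM after MGH-CP1, and its log2 fold change was -0.27 (SE 0.05, limma adjusted p = 0.00245). CYP51A1, the lanosterol demethylase, was the only one of the 37 genes under the mean of 1 FPKM and was not tested. It had 0.526 and 0.806 FPKM in the vehicle control libraries and 1.06 and 0.904 FPKM after MGH-CP1, which is 43 to 66 fragments per library. In GENCODE release 29, 83.2% of the exonic bases of CYP51A1 are exonic in another gene as well, and 88.3% of the 100-base windows of its longest coding transcript recur in a transcript of AC000120.2. By the deposited coordinates, CYP51A1 overlaps LRRD1 on the same strand over 30794 bases, and LRRD1 held at most 1 fragment in a library. How reads in shared exons were counted is not given in the sources used here, and its part in the low value was not tested.

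The fatty acid genes went both ways as well. Their mean level over the 4 libraries ran from 17.5 FPKM for ACACA to 170.0 FPKM for SCD, where the mevalonate genes ran from 1.97 to 30.3 FPKM and the late sterol genes tested from 3.44 to 45.4 FPKM. SCD, FASN and ELOVL6, which make and lengthen saturated chains and introduce the first double bond, rose, ACLY and ELOVL5 fell, and 4 of the 9 genes were not called. The median log2 fold change was 0.10. ACLY, which makes the cytosolic acetyl-CoA that both pathways use, had 112 and 111 FPKM in the vehicle control libraries and 90.8 and 97.4 FPKM after MGH-CP1 (log2 fold change -0.24, SE 0.05, limma adjusted p = 0.00494). ACACA, acetyl-CoA carboxylase, had 18.04 and 18.4 FPKM with vehicle and 17.1 and 16.5 FPKM with MGH-CP1, lower in both MGH-CP1 libraries without a call (interval from -0.24 to 0.02). Its paralog ACACB, no gene of the list, had 1.24 to 1.42 FPKM in the vehicle control libraries and 1.26 to 1.28 FPKM after MGH-CP1, with overlapping groups. FASN, fatty acid synthase, had 72.1 and 76.1 FPKM in the vehicle control libraries and 80.7 and 86.8 FPKM after MGH-CP1. The rise of FASN was small (log2 fold change 0.17, SE 0.06, limma adjusted p = 0.0309), and the call was lost without vehicle control replicate 1 (adjusted p = 0.112) and without MGH-CP1 replicate 2 (adjusted p = 0.188 in limma).

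SCD, the stearoyl-CoA desaturase that makes oleate, was the most highly expressed of the 37 genes and had 135 and 136 FPKM in the vehicle control libraries and 211 and 198 FPKM after MGH-CP1. The groups were far apart relative to the replicates, and the log2 fold change was 0.59 (SE 0.05, limma adjusted p = 7.19e-05). SCD lies on chromosome 10 from 102106881 to 102124591 (plus strand, hg19). The elongases differed from each other: ELOVL6, which lengthens palmitate to stearate, rose from 31.9 and 29.3 FPKM to 37.5 and 36.8 FPKM (log2 fold change 0.27, SE 0.06, limma adjusted p = 0.00521). ELOVL5, which lengthens polyunsaturated chains, fell from 109 and 108 FPKM to 87.3 and 86.6 FPKM (log2 fold change -0.32, SE 0.04, limma adjusted p = 7.05e-04). ELOVL1, which makes very long chains, had 90.4 and 95.7 FPKM with vehicle and 98.3 and 101 FPKM with MGH-CP1 and was not called (interval from -0.02 to 0.21). The polyunsaturated fatty acid desaturase genes FADS1 and FADS2 lie head to head, with spans that overlap by 29692 bases in the table, and neither was called. FADS1 had 53.8 and 55.3 FPKM in the vehicle control libraries and 50.8 and 50.6 FPKM after MGH-CP1, and FADS2 had 51.8 and 53.4 FPKM with vehicle and 57.4 and 56.7 FPKM with MGH-CP1, with log2 fold changes of -0.10 and 0.11 (adjusted p = 0.104 and 0.0769 from limma). FADS2 was called higher with limma voom on the recovered fragments (adjusted p = 0.0491) and with quantile normalization. The span of FADS2 also holds FEN1, a replication gene that fell (log2 fold change -0.76, adjusted p = 9.59e-05 from limma).

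Side by side, each branch held calls in both directions. Of the mevalonate genes 37.5% were called higher and 12.5% lower, of the late sterol genes 30% and 10%, and of the fatty acid genes 33.3% and 22.2%, where all genes tested gave 27.1% and 23.8%. These shares rest on 1 to 3 calls each, and the balance within a branch was not stable: without vehicle control replicate 1 or without vehicle control replicate 2 the late sterol genes had 2 called higher and 2 lower, without vehicle control replicate 1 or without MGH-CP1 replicate 2 the fatty acid genes had 2 and 2, and with no filter on low values the mevalonate genes had 0 and 1. The medians of 0.09, -0.02 and 0.10 on the log2 scale were close to that of all genes, while the members of each branch spread from -0.58 to 0.45, from -0.27 to 0.82 and from -0.32 to 0.59. Over the 4 possible pairs of a treated and a control library, which share libraries, the branch medians ran from -0.01 to 0.13 for mevalonate, from -0.08 to 0.04 for late sterol and from 0.04 to 0.13 for fatty acid genes. The branches were not tested against each other, since genes are not replicates of a condition.

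**Figure D2:**
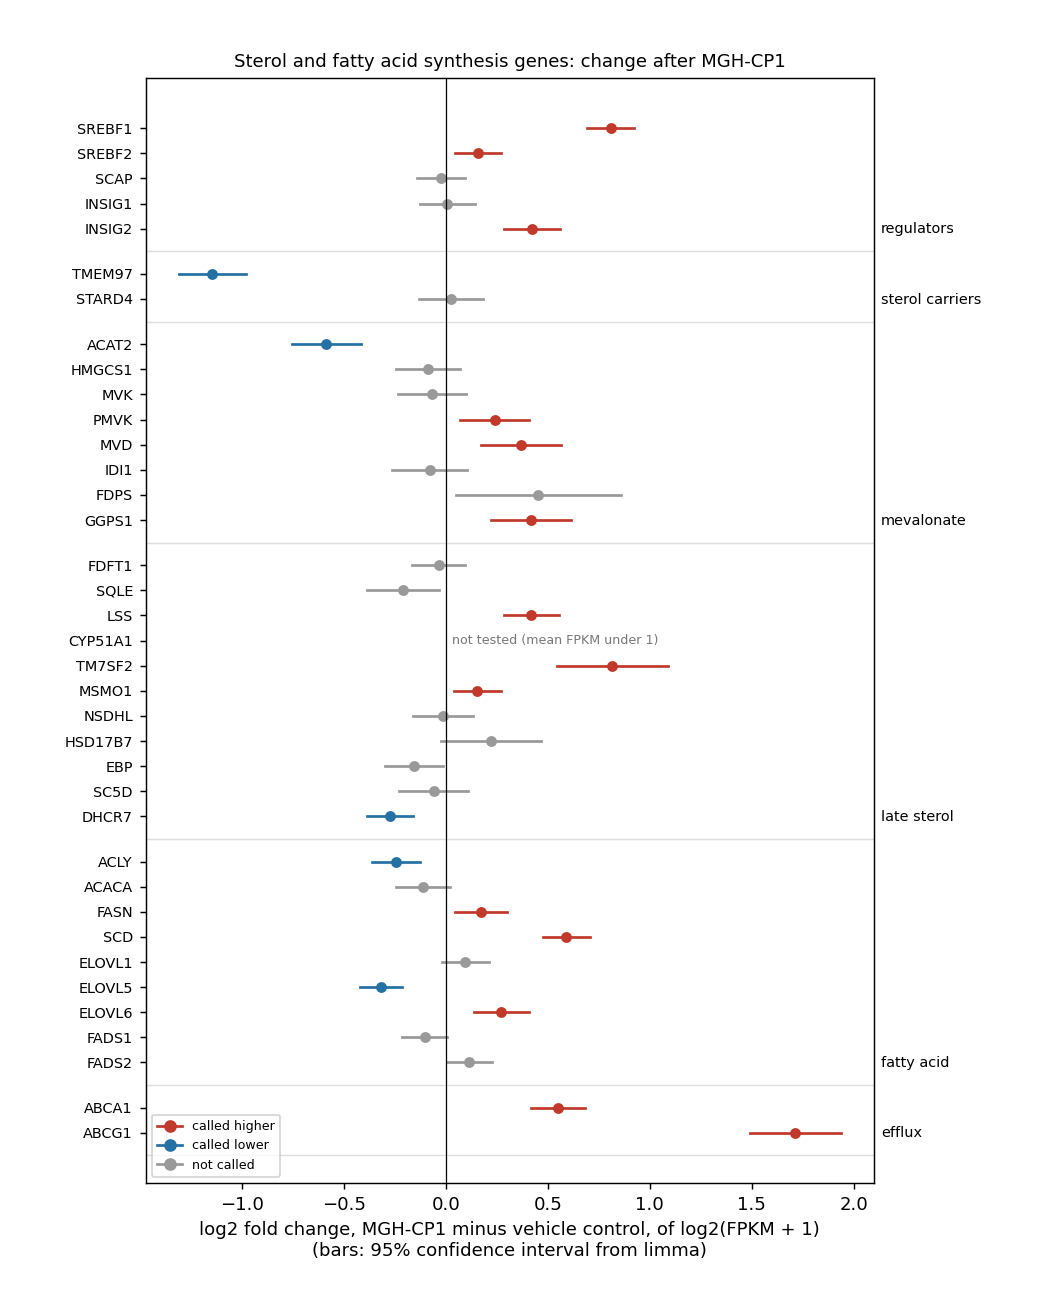
Log2 fold change (MGH-CP1 minus vehicle control, of log2(FPKM + 1)) of the 36 genes tested, with the 95% confidence interval from limma and the call by colour. Intervals lie on both sides of 0 within the mevalonate, late sterol and fatty acid branches, with ABCG1 at 1.71 and TMEM97 at -1.14 as the ends of the range.

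Both sterol efflux transporters rose. ABCG1, which passes cholesterol to lipoproteins, had 2.57 and 2.67 FPKM in the vehicle control libraries and 11.9 and 9.90 FPKM after MGH-CP1, so that the mean was 4.16 times that of the vehicle control libraries. Its log2 fold change of 1.71 (SE 0.10, limma adjusted p = 1.98e-05) was the largest on the list and the 22nd largest rise of all 12080 genes tested. ABCG1 lies on chromosome 21 from 43619799 to 43717354 (plus strand, hg19), and 227 to 744 fragments per library were counted on it. ABCA1, which loads lipid onto apolipoprotein A-I, had 18.97 and 19.1 FPKM in the vehicle control libraries and 27.4 and 29.4 FPKM after MGH-CP1 (log2 fold change 0.55, SE 0.06, limma adjusted p = 1.77e-04). Of the 5 LXR genes and targets tested outside the list, all 5 were called higher, beside 27.1% of all genes tested. The median log2 fold change of these 5 was 0.65. NR1H3, which encodes LXR alpha, had 3.27 and 3.27 FPKM in the vehicle control libraries and 8.24 and 6.90 FPKM after MGH-CP1 (log2 fold change 1.00, SE 0.10, limma adjusted p = 1.19e-04). NR1H2, which encodes LXR beta and is expressed more highly, had 28.8 and 31.8 FPKM and then 38.4 and 40.4 FPKM, a log2 fold change of 0.37 (SE 0.06, limma adjusted p = 0.00174).

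MYLIP, a ubiquitin ligase, rose by 0.65 on the log2 scale (SE 0.07, limma adjusted p = 1.56e-04), from 10.3 and 11.3 FPKM to 17.8 and 17.3 FPKM. APOE, a lipid-carrying apolipoprotein, had 1.33 and 0.844 FPKM in the vehicle control libraries and 2.85 and 3.48 FPKM after MGH-CP1 (log2 fold change 1.00, SE 0.14, limma adjusted p = 8.20e-04). The mean of APOE after MGH-CP1 was 2.91 times the vehicle control mean. LPCAT3, a phospholipid-remodelling enzyme that is named here because it is the remaining one of the 5, rose by 0.33. NR1H4, the bile acid receptor gene, was at most 0.0395 FPKM and was not tested. ABCA1, ABCG1, SREBF1 and SCD were picked from the members called higher and set beside these 5. The genes so pooled lay between 1.24 and 4.54 times the vehicle control mean in every MGH-CP1 library. Their shared direction follows from that choice and adds nothing to the calls. The LXR list was written with earlier results of these data known, and no LXR activity was measured.

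**Figure D3:**
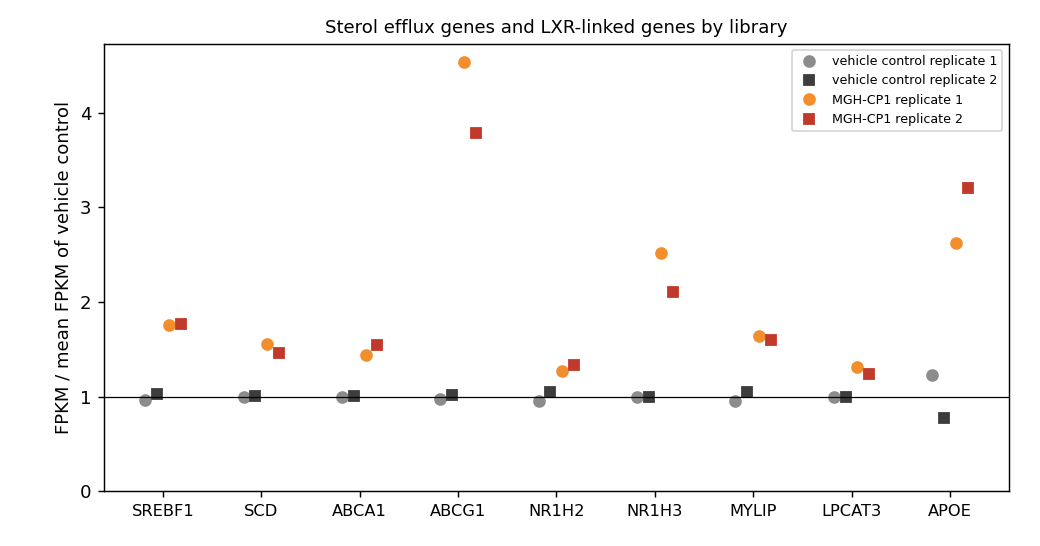
FPKM of each library divided by the mean FPKM of the vehicle control libraries, for SREBF1, SCD, ABCA1, ABCG1 and the 5 LXR genes and targets tested, with 1 point per library and a line at 1. All genes shown had been called higher, so their shared direction follows from the choice. The MGH-CP1 points lie from 1.24 to 4.54 and the vehicle control points from 0.775 to 1.22, the widest for APOE.

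Other genes of lipid metabolism were counted in lists that were chosen with earlier results of these data known. The shares given for these lists, here and below, are therefore description only. Of the 10 genes tested for sterol uptake, storage and transport, 5 were called higher (50%) and 2 lower (20%). Over all genes tested, the shares were 27.1% and 23.8%. MYLIP is among these 5 and is also counted in the LXR list. SOAT1, which esterifies cholesterol for storage, fell from 28.1 and 26.2 FPKM to 17.9 and 20.03 FPKM (log2 fold change -0.50, SE 0.07, limma adjusted p = 7.14e-04). Of the 8 genes that process sterol regulatory element-binding proteins or regulate that step, MBTPS1, the site-1 protease, rose by 0.19 and ERLIN1, a partner of INSIG-bound complexes, fell by 0.41 on the log2 scale, and 6 were not called.

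Genes that oxidise or activate fatty acids were mostly called higher. Over all genes tested, 27.1% were called higher and 23.8% lower. Of 13 fatty acid oxidation genes, 8 were called higher (61.5%) and 1 lower (7.69%), and their median log2 fold change was 0.22. ACADVL, the first dehydrogenase for long chains, rose from 96.2 and 105.4 FPKM to 205 and 191 FPKM (log2 fold change 0.97, SE 0.06, limma adjusted p = 2.58e-05), ACADS, that for short chains, by 0.64 and ACAA2, a mitochondrial thiolase, by 0.35 on the log2 scale. Of 4 acyl-CoA synthetase genes tested, ACSL1, ACSL5 and ACSL3 were called higher and ACSL4, which prefers arachidonate, lower. The log2 fold changes were 0.54 for ACSL1, 0.39 for ACSL5 and -0.37 for ACSL4. Of 16 other fatty acid synthesis genes tested, 3 were called higher and 3 lower. ACSS2, which makes acetyl-CoA from acetate, rose by 0.41, SLC25A1, the citrate carrier, by 0.39, and MLXIPL, a glucose-responsive activator of lipogenic genes, by 0.98 on the log2 scale. MLXIPL passed the filter only through the MGH-CP1 libraries, at 2.07 and 1.89 FPKM, and was at 0.383 and 0.646 FPKM in the vehicle control libraries. Its mean after MGH-CP1 was 3.85 times the vehicle control mean.

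Among genes that use isoprenoid diphosphates, of 11 tested, 0 were called higher and 4 lower (36.4%), where all genes tested gave 27.1% and 23.8%. The median log2 fold change of these 11 was -0.16. PDSS1, which builds the side chain of coenzyme Q, fell from 8.34 and 7.81 FPKM to 4.41 and 4.27 FPKM (log2 fold change -0.76, SE 0.08, limma adjusted p = 1.43e-04). ICMT, which methylates prenylated proteins, fell by 0.38 on the log2 scale. FNTB, a subunit of farnesyltransferase, was not tested, at 0.261 to 0.373 FPKM. Among the other called genes in counts of 5 or fewer, named here after their values were seen, NPC2 and STARD3 were higher and SCARB1, MCAT, PTPLA, PTPLB, HADH and COQ2 lower. No list was tested against the others or against all genes.

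**Figure D4:**
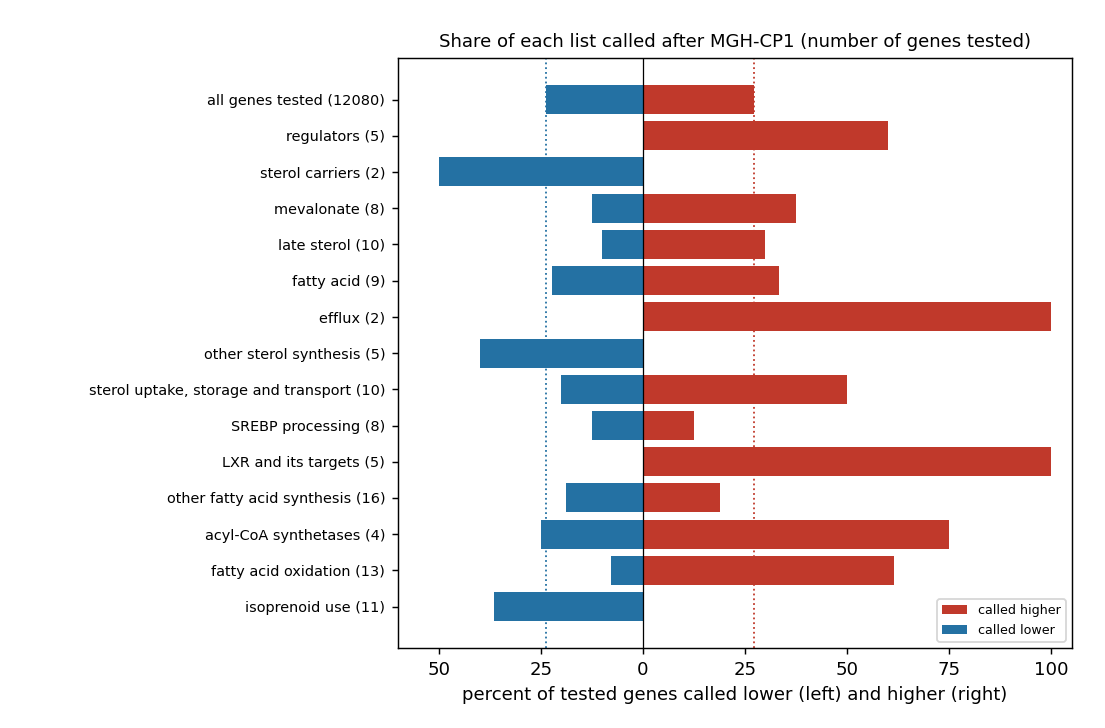
Share of the tested genes of each list called higher (right) or lower (left) after MGH-CP1 by the limma call, with the number of genes tested in parentheses and dotted lines at the shares over all 12080 genes tested, 27.1% and 23.8%. The efflux and LXR lists were called higher throughout (2 of 2 and 5 of 5), and the isoprenoid use list was called lower in 36.4% with no gene called higher. The lists were chosen with earlier results of these data known.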

How the data were processed

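Novogene selected mRNA with poly-T, prepared the libraries and sequenced them paired-end. The processing notes of the submitters name CASAVA 1.8, STAR and the build hg19, while the counting tool and annotation are not given in the sources used here. The authors deposited FPKM per gene and library, with coordinates and a gene length, without pooling replicates. Columns headed DMSO or CP1 were matched by number to the samples titled Control or MGH-CP1. FPKM times length were whole multiples of 1 step for 100% of values (within 0.05 fragments), which gave 17577930 to 25508824 fragments per library. Chi-square per degree of freedom between replicates was 4.38 (vehicle control) and 3.16 (MGH-CP1), so no library was a copy of another.

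From the FPKM, log2(FPKM + 1) of the 12080 genes with a mean of at least 1 FPKM was fitted by group in limma 3.58.1 (eBayes with trend, 5.97 prior degrees of freedom, Benjamini-Hochberg adjustment, threshold 0.05). The fit was tested on simulated data. The members and lists were chosen with earlier results of these data known. All members are named, and of each other list the 3 largest called changes, plus ACACB, ACSS2, NR1H2 and a few others, and some of the genes so chosen are not reported here. Alternatives were another pseudocount, filters, scalings, a replicate block, no trend, no shared variance, limma voom on recovered fragments, a minimum fold change and leaving out each library. Exonic overlaps and shared 100-base windows came from GENCODE release 29, and promoters from RefSeq (GRCh38.p14), and neither was combined with the coordinates of the table.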

Additional observations from a re-analysis of the deposited data

How the results depend on the processing

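The 19 calls kept their sign in all 247 values that the alternative fits gave for them, which was largely fixed in advance. Fits that changed only the filter, the replicate block, the trend or the shared variance gave the same log2 fold change. Leaving out a library could not reverse genes whose groups did not overlap, as was so for all 19. The side of the threshold depended on the shared variance. With variance estimated gene by gene in limma, 0 of the 36 genes were called higher and 0 lower, so that the mevalonate, late sterol and fatty acid counts were all 0, although 10 had an unadjusted p under 0.05 upward and 6 downward. That fit called 9 genes higher and 4 lower over all genes tested, where 2584 and 2363 had such an unadjusted p. When a change of at least 0.5 on the log2 scale was also required, 5 genes of the list were higher and 2 lower, with 0 higher among the mevalonate genes, 1 higher and 0 lower among the late sterol genes and 1 higher and 0 lower among the fatty acid genes, and 1261 higher and 744 lower over all genes. Without the filter on low values, where 24878 genes were tested, PMVK, MVD, GGPS1 and FASN lost their call, 0 mevalonate genes were higher and 1844 of all genes lower. Without the variance trend SREBF2, PMVK, MSMO1 and FASN lost theirs. Late sterol genes called lower numbered 2, with SQLE added, at a mean of at least 5 FPKM, with median-ratio scaling, with quantile normalization and with limma voom.

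Whether the replicate numbers pair the libraries is not given by the labels. The deviations of same-numbered libraries had a correlation of 0.0777 across genes, which cannot settle it with 2 libraries per group. A replicate block gave 15 genes of the list higher and 7 lower and added FDPS, SQLE and EBP, so that 3 late sterol genes were lower. Over all genes tested that block gave 3466 higher and 3052 lower, beside 3273 and 2869 in the main fit. With each library left out in turn, a group was left with a single library, and the counts of calls changed both on the list and over all genes tested. IDI1 and SQLE were added as lower without vehicle control replicate 2, and EBP without vehicle control replicate 1. FDPS was called higher without vehicle control replicate 1 and without MGH-CP1 replicate 1, and HSD17B7 without the latter. Counting error limits FDPS and CYP51A1 most, whose highest library counts were 102 and 66 fragments.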
